A study of Mus musculus with 12 samples.

Results

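The 10 genes described here carry peptides to the cell surface for T cells, and they were taken by name from the deposited gene table: H2-K1, H2-D1 and B2M of the class I molecule, TAP1, TAP2 and TAPBP of class I peptide loading, and H2-AA, H2-AB1, H2-EB1 and CD74 of class II. All 10 were listed above the lesion, among 13647 gene entries, and 9 were listed below it, among 12338, where H2-K1 had no entry. The libraries came from spinal cord of male mice that carried human ApoE4 in every group, were 4 months old when a contusion was made at thoracic level 9, and were sampled 14 days later. The compared genotypes were synj1+/+ (both alleles of synaptojanin 1 intact) and synj1+/- (1 allele inactive), each sampled above and below the lesion, with 3 libraries in each of the 4 groups and 12 in all. Uninjured cord and ApoE3 animals were not analysed here, so every value belongs to injured tissue.

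The deposited table gives 1 pooled value per gene, group and site and 0 columns of single libraries. The spread between animals therefore could not be computed, and no difference in the text was tested against replicate error. The precision of each pooled value is unknown for the same reason. Values are FPKM (fragments scaled to transcript length and to library size), a level per transcript length, and differences are given on the log2(FPKM + 1) scale, which understates the difference of weakly expressed genes. SYNJ1, the targeted gene, ran against its label at both sites, with 1904 FPKM in the synj1+/+ libraries as labelled against 2403 in synj1+/- above the lesion, and 1846 against 2592 below it. Each set of pooled libraries is therefore called a pool labelled by its genotype. The directions given for genotype follow the labels as deposited.

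Class I molecules are found on nearly all nucleated cells. A heavy chain such as H2-K1 or H2-D1 pairs with the light chain beta-2-microglobulin (B2M) and binds peptides that the proteasome cut from proteins of the cell itself, which the TAP1-TAP2 transporter brings into the endoplasmic reticulum and tapasin (TAPBP) helps to load. Class II molecules are dimers of an alpha and a beta chain on professional antigen-presenting cells, and the invariant chain CD74 guards their groove until endosomal proteases remove it. Resting microglia of the cord carry little class II, while activated microglia and infiltrating myeloid cells can carry more, and both classes are induced by interferon gamma.

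Of the 10 genes, 8 lie in 1.35 Mb of chromosome 17, from Tapbp to H2-D1 (chr17:33915899-35267499, GRCm38), while B2m and Cd74 lie on chromosomes of their own. The class II chains are neighbours: H2-Ab1 (chr17:34257689-34269419, + strand), H2-Aa (chr17:34282744-34287823, - strand) and H2-Eb1 (chr17:34305867-34316674, + strand) fit in 59.0 kb.

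The promoters of both classes are known for a shared module that holds a Y box, whose core is the letters ATTGG (an inverted CCAAT box), and class I promoters also for an interferon response element and a kappa B element. The 150 bases before the start of 2 class I and 2 class II genes are shown, from RefSeq on GRCm38.p6, because they let these elements be seen beside the values. Capitals mark matches on either strand to any of 5 motifs: ATTGG, CTGATTGG (which contains ATTGG), TTTCANTTC, GGGGATTCC and GAAANNGAA.
H2-K1, chr17:34000348-34000497, - strand: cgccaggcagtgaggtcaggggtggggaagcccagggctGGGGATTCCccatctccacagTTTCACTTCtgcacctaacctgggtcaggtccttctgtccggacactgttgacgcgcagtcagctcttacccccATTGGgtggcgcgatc
B2m, chr2:122147537-122147686, + strand: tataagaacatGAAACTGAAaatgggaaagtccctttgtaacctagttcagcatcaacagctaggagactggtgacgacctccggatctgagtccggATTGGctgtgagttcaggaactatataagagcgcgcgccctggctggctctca
H2-Aa, chr17:34287824-34287973, - strand: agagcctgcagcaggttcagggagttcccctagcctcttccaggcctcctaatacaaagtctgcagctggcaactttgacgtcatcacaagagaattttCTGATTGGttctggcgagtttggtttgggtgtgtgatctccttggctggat
H2-Eb1, chr17:34305717-34305866, + strand: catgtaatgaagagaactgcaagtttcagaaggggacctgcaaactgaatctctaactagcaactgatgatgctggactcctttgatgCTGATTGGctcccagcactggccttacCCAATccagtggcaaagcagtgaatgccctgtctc
Promoter entries were found for 7 of the 10 genes, with none for Tap2, H2-Ab1 and Cd74. In the 250 bases before the start, ATTGG was present in 7 of 7, against 33.8% of all 32851 promoters. The longer CTGATTGG was in 4 of 7 (H2-Aa, H2-Eb1, H2-D1 and Tap1), against 3.83%. The match of Tap1 lies 222 bases before its start, and the same letters lie 11 bases before the start of a neighbouring gene, Psmb9, on the other strand. The kappa B letters GGGGATTCC were in H2-K1 and H2-D1 alone among the 7, against 0.213% of all promoters, and so was TTTCANTTC, against 1.5%. GAAANNGAA was in B2m alone, against 7.13%. The Y box letters CTGATTGG begin 51 bases before the start of H2-Aa and 62 before that of H2-Eb1, and the kappa B letters of H2-K1 begin 111 bases before its start. The motifs were chosen after the promoters were seen, so the shares beside them are a description only. These matches describe letters in a window and show no binding.

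Class I transcripts were far more abundant than class II transcripts at both sites. Above the lesion in the pool labelled synj1+/+, H2-K1 stood at 1758 FPKM, B2M at 417 and H2-D1 at 162, where the median of all genes was 35.5. TAPBP followed at 69.9, then CD74 at 24.3, TAP1 at 8.66 and TAP2 at 7.20, and the class II chains were lowest, H2-AB1 at 5.19, H2-EB1 at 3.85 and H2-AA at 2.57. The range from H2-AA to H2-K1 was 685-fold. Below the lesion the order differed at the lower end: the class II chains (14.9 for H2-EB1, 14.2 for H2-AB1 and 11.4 for H2-AA) were above TAP2 at 9.65 and TAP1 at 8.59. Without replicates, neighbours in these orders cannot be ranked beyond their spread.

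**Figure D1:**
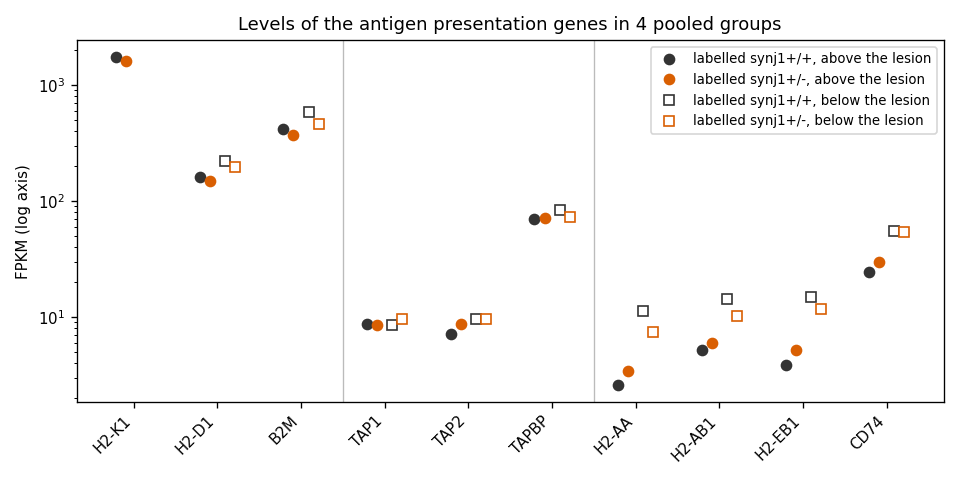
FPKM (log axis) of the 10 genes in the 4 pooled groups, 1 point per gene and group, with no error because the deposited values are pooled. H2-K1 and B2M sit at the top, and the class II chains sit lowest above the lesion and higher below it; H2-K1 has no point below the lesion.

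Above the lesion the class I molecule was slightly lower in the pool labelled synj1+/-. H2-K1, a classical heavy chain, was 1758 FPKM in the pool labelled synj1+/+ and 1615 in the pool labelled synj1+/-, a log2 difference of -0.12. H2-D1, the other classical heavy chain listed, was 162 and 148, a log2 difference of -0.13. B2M, the light chain that all class I heavy chains need, was 417 and 369, a log2 difference of -0.17. The differences in FPKM were -8.18% for H2-K1, -8.75% for H2-D1 and -11.4% for B2M. Over all genes above the lesion the 5th percentile of the log2 difference was -0.39 and the 95th was 0.30.

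Below the lesion the class I values stood in the same direction. H2-D1 was 223 FPKM in the pool labelled synj1+/+ and 195 in the pool labelled synj1+/-, a log2 difference of -0.19. B2M was 586 and 461, a log2 difference of -0.35, and it was the only 1 of the 9 genes that lay outside the 5th to 95th percentile of genes within 2-fold of its own level there. Its place among those genes was percentile 4.61. The ratio of B2M to H2-D1 was between 2.36 and 2.63 in all 4 groups. Class I heavy chain genes are near-identical copies, and how the authors' counting divided shared reads among them is not given in the sources used here, so single heavy chain values are uncertain.

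The loading genes had small differences between the genotypes, with TAP2 above the lesion the largest of the 6 values. TAP1, a subunit of the peptide transporter, was 8.66 and 8.54 FPKM above the lesion and 8.59 and 9.70 below it, in the order synj1+/+ then synj1+/-. TAP2, its partner subunit, was 7.20 and 8.78 above, a log2 difference of 0.25, and 9.65 and 9.53 below, a difference of -0.02. TAPBP, the chaperone that bridges the transporter and the heavy chain, was 69.9 and 71.0 above and 84.4 and 73.1 below, where its log2 difference was -0.20. The subunits of the transporter had differences of unlike sign at each site, but the negative value was only -0.02 each time (TAP1 above, TAP2 below). The median of the 3 genes was 0.02 above and -0.02 below.

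The class II chains stood in opposite directions at the 2 sites. Above the lesion all 4 were higher in the pool labelled synj1+/-. H2-AA, the alpha chain of I-A, was 2.57 FPKM in the pool labelled synj1+/+ and 3.40 in the pool labelled synj1+/-, a log2 difference of 0.30. H2-AB1, the I-A beta chain, was 5.19 and 5.92, a difference of 0.16. H2-EB1, the I-E beta chain, was 3.85 and 5.15, a difference of 0.34. CD74 was 24.3 and 29.6, a difference of 0.27. The differences lay between percentiles 78.9 and 94.3 of genes of like level (genes within 2-fold of the same level), and each of the 4 was inside the 5th to 95th percentile of those genes.

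Below the lesion the 3 class II chains were lower in the pool labelled synj1+/-, and CD74 was nearly level. H2-AA was 11.4 FPKM in the pool labelled synj1+/+ and 7.37 in the pool labelled synj1+/-, a log2 difference of -0.56, or -35.2% in FPKM. H2-AB1 was 14.2 and 10.2, a difference of -0.45. H2-EB1 was 14.9 and 11.8, a difference of -0.31. CD74 was 55.2 and 54.6, a difference of -0.02. The alpha and beta chains of I-A were therefore closer to each other than either was to the invariant chain. Their percentiles among genes of like level were 6.72 for H2-AA, 8.88 for H2-AB1 and 14.4 for H2-EB1.

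On the log2(FPKM + 1) scale no member was past 1.5-fold, a limit used only to describe size, at either site. Above the lesion 0 of 10 were past it, where 0.792% of all genes were higher and 1.93% lower past that fold. Below the lesion 0 of 9 were past it, against 1.16% higher and 4.37% lower. That count rests on the constant of 1: H2-AA below stood at 0.648 times in FPKM itself, which is past the limit, and 1 of 9 was past it lower with 0.1 added in place of 1. The share of all genes with 0.1 added is not given here. By sign alone, 6 of 10 were higher and 4 lower above, and 1 was higher and 8 lower below, where 51% of all genes were lower above and 47.2% below. The median over the members was 0.09 above and -0.20 below, beside -0.004 and 0.014 over all genes. The class II median was 0.29 above and -0.38 below, and that of class I was -0.13 and -0.27.

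**Figure D2:**
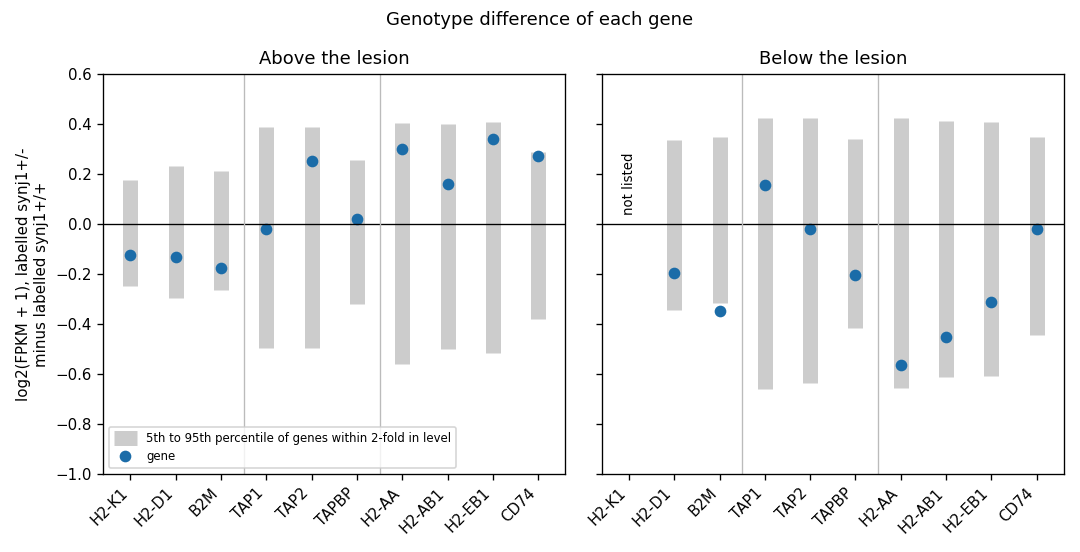
Difference between the pools labelled synj1+/- and synj1+/+ in log2(FPKM + 1) for each gene, above and below the lesion, 1 point per gene from pooled values. Grey bars span the 5th to 95th percentile of genes within 2-fold of that gene's level: all 10 points above lie inside them and B2M alone lies outside below.

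Class II transcripts were higher below the lesion than above it in both genotypes. The ratio of FPKM below to above in the pool labelled synj1+/+ was 4.43 for H2-AA, 3.87 for H2-EB1, 2.75 for H2-AB1 and 2.27 for CD74. In the pool labelled synj1+/- the ratios were 2.17, 2.30, 1.72 and 1.84 in the same order of genes. All 4 were past 1.5-fold higher in both genotypes, where 3.24% of all genes were in the pool labelled synj1+/+ and 1.43% in the pool labelled synj1+/-. The 4 genes stood at percentiles 99.2 to 99.8 of all genes for the first and 99.0 to 99.7 for the second.

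Class I and loading genes differed less between the sites. The log2 difference, below over above, was 0.46 and 0.40 for H2-D1 and 0.49 and 0.32 for B2M in the pools labelled synj1+/+ and synj1+/-. These were outside the 5th to 95th percentile of genes of like level too, together with the 4 class II genes, making 6 of 9 in each genotype. TAP1 had FPKM ratios of 0.991 and 1.14, TAP2 of 1.34 and 1.09, and TAPBP of 1.21 and 1.03. No member was past 1.5-fold lower below than above, as were 1.36% of all genes in the pool labelled synj1+/+ and 0.832% in the pool labelled synj1+/-. By sign, 8 of 9 and 9 of 9 were higher below, where 49.8% and 55.5% of all genes were. The sites were scaled separately by the authors, so a level set across them also carries any difference between the 2 scalings, although the median of all genes between the sites was -0.001 and 0.022 on the log2 scale.

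**Figure D3:**
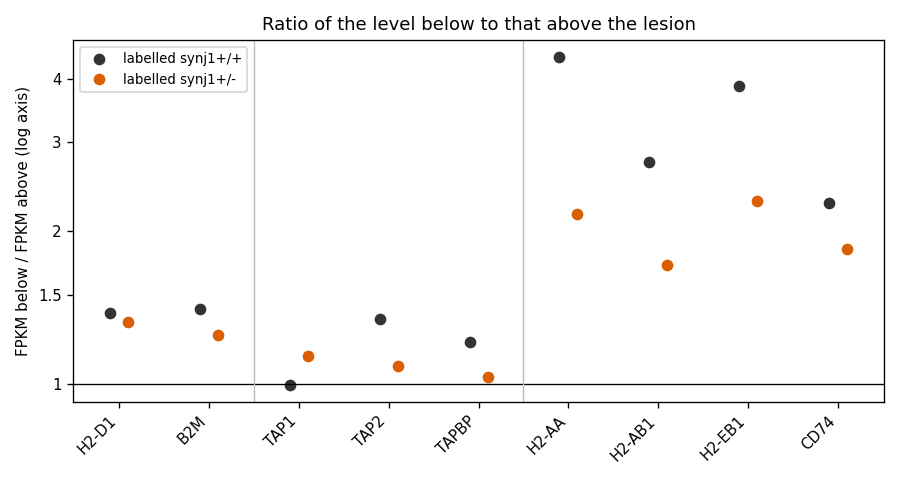
Ratio of FPKM below to FPKM above the lesion (log axis) for the 9 genes listed at both sites, 1 point per gene and genotype from pooled values. The 4 class II genes lie between 1.72 and 4.43 and the class I and loading genes between 0.991 and 1.41.

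The site pattern and the genotype pattern meet in the difference between the genotype differences, below minus above. It was -0.87 for H2-AA, -0.65 for H2-EB1 and -0.61 for H2-AB1, and -0.29 for CD74. H2-AA and H2-EB1 were the 2 of 9 outside the 5th to 95th percentile of genes of like level, at percentiles 2.22 and 4.69, with H2-AB1 at 5.58. The 3 chains were past 1.5-fold lower, as were 3.38% of all genes, and 0 were past it higher, as were 2.29%. TAP2 was at -0.27, TAPBP at -0.23, B2M at -0.17 and H2-D1 at -0.06, and TAP1 alone was above 0, at 0.18, where 53.9% of all genes were above 0. In 6 of the 9 genes (TAP2, TAPBP and the 4 of class II) the pool labelled synj1+/- was higher above and lower below, a pattern held by 17.6% of all genes. For 3 of the 6, 1 sign rests on a small value: -0.02 for TAP2 and CD74 below and 0.02 for TAPBP above. The median absolute difference over all genes was 0.11 above and 0.15 below. H2-D1 and B2M were lower at both sites.

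The other genes of the pathway, 86 named in 8 lists, were lower in the pool labelled synj1+/- in 41 of 68 listed above the lesion and 40 of 61 listed below, where 51% and 47.2% of all genes were lower. Past 1.5-fold were 0 higher and 1 lower above and 1 higher and 3 lower below, where the shares over all genes were 0.792% and 1.93% above and 1.16% and 4.37% below. The endosomal side of class II stood lower at both sites: all 8 genes listed above and all 6 listed below were lower, with medians of -0.22 and -0.57. CTSS, the protease that trims the invariant chain, was 655 and 554 FPKM above and 971 and 632 below, a log2 difference of -0.24 and -0.62. CTSL, a related protease, was 192 and 124 below, a difference of -0.63. H2-OB, a chain of H2-O, was 6.06 and 3.67 below, a difference of -0.60, and H2-DMB1, a chain of the peptide exchanger H2-DM, was 6.17 and 3.90, a difference of -0.55. Above the lesion these processing genes were lower where the class II chains were higher.

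Among other class I-like genes, 17 of 25 named were listed above, 6 higher and 11 lower, and 16 below, 3 higher and 13 lower, with medians of -0.06 and -0.11. H2-T24, a nonclassical class I gene, was the 1 past 1.5-fold, at 29.7 and 14.2 FPKM above, a log2 difference of -1.01. Of 7 loading and trimming genes, 5 above and 6 below were lower, with medians of -0.08 and -0.05. The 6 immunoproteasome genes, whose subunits cut peptides suited to class I, split 4 higher and 2 lower at both sites, with medians of 0.09 and 0.10. The 3 catalytic subunits of the constitutive proteasome had medians of -0.06 and 0.03. PSMB9, an interferon-induced catalytic subunit, was 3.80 and 4.45 FPKM above and 3.73 and 9.26 below, a log2 difference of 1.12. In GENCODE, Psmb9 and Tap1 are read from opposite strands and overlap by 212 bases (chr17:34187553-34187764). By the RefSeq promoter entries the genes share no bases there: the 150 bases before Psmb9 are chr17:34187331-34187480 and those before Tap1 are chr17:34187406-34187555. Which annotation and strand setting the counting used is not given in the sources used here, so reads there cannot be assigned to 1 of them. TAP1 was the member with the highest genotype difference below the lesion, at 0.16.

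The regulators of the class II and class I promoters were split in direction, with 4 of 8 higher above and 3 of 6 higher below. CIITA, the master coactivator of class II, was not listed at either site. NLRC5, the coactivator of class I, was 20.4 and 18.5 FPKM above and 16.2 and 12.6 below, log2 differences of -0.14 and -0.34. Of the interferon gamma response genes, 10 of 16 were higher above with a median of 0.16, and 6 of 14 were higher below with a median of -0.01. IRF8, a factor of myeloid cells as well as of that response, was lower at both sites, 45.9 and 34.6 above and 54.4 and 37.2 below. CD86, a costimulatory ligand for T cells, was 17.9 and 13.9 above and 20.4 and 15.1 below, and CD40 and CD80 were not listed. The 3 costimulation genes listed had medians of -0.24 above and -0.35 below.

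**Figure D4:**
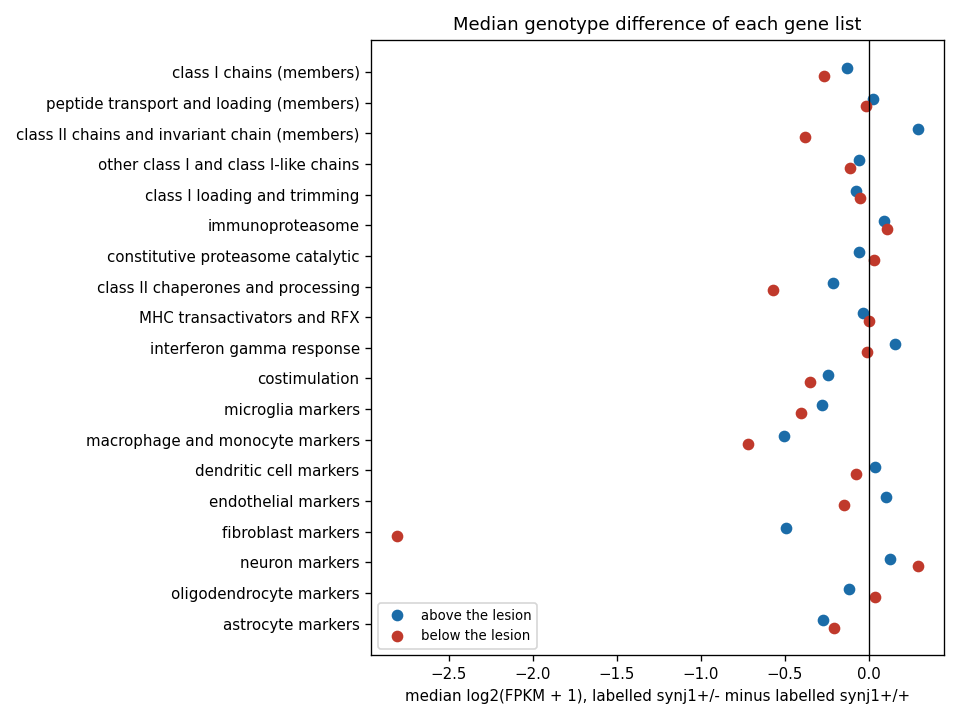
Median difference between the pools labelled synj1+/- and synj1+/+ in log2(FPKM + 1) over the listed genes of each gene list, above and below the lesion, from pooled values. Class II members are at 0.29 above and -0.38 below, while macrophage and microglia markers lie below 0 at both sites. Endothelial markers (0.10 above and -0.15 below) and dendritic cell markers (0.04 and -0.08) have the same signs as class II. So do the interferon gamma response list (0.16 and -0.01) and the loading members (0.02 and -0.02).

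Markers of cells that carry these molecules also differed with genotype and site, in bulk tissue, where fewer cells of a type and less RNA per cell cannot be told apart. Macrophage markers were lower in the pool labelled synj1+/- in 6 of 7 listed above and 8 of 8 below, with summed levels of 726 and 506 FPKM above and 1600 and 744 below. LYZ2, a lysozyme of macrophages, was 380 and 234 above and 1100 and 464 below. CCR2, F13A1 and CD163 of that list were not listed. Microglia markers were lower in 8 of 10 above and 6 of 7 below, where P2RY12, SIGLECH and GPR34 were not listed. Their summed levels were 980 and 813 FPKM over the 10 above and 737 and 554 over the 7 below. Over the 7 listed at both sites the sums above were 688 and 529. Dendritic cell markers were 3 of 7 listed, summed at 36.8 and 34.9 above and 39.5 and 34.8 below, with XCR1, CLEC9A, CD209A and CCR7 not listed. By gene, 2 of the 3 were higher in the pool labelled synj1+/- above and 0 below. ZBTB46, at 25.5 and 22.5 FPKM above, made up most of the sum there. None of the 5 B cell or 7 T cell markers was listed at either site. Endothelial markers, all 5 listed, were summed at 97.5 and 104 above and 138 and 121 below, and fibroblast markers at 85.4 and 72.8 above and 348 and 91.6 below. PDGFRA of the fibroblast list made up much of those sums, at 62.6 and 57.3 above and 68.3 and 55.0 below. Of the 5 fibroblast markers, 4 were past 1.5-fold lower below, against 4.37% of all genes, with a list median of -2.81. The part of all these cell markers in the differences of the class II and class I genes was not tested.

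Set against the markers LYZ2 and CX3CR1 and the processing gene CTSS, the genotype order of the class II chains below the lesion depended on the gene chosen. The summed FPKM of the 3 chains was 11.6 and 14.5 above and 40.5 and 29.4 below. Per 100 FPKM of LYZ2 it was 3.06 and 6.19 above and 3.68 and 6.32 below, higher in the pool labelled synj1+/- at both sites. Per 100 FPKM of CTSS it was 1.77 and 2.61 above and 4.17 and 4.65 below, again higher in that pool. Per 100 FPKM of CX3CR1, a receptor of microglia and monocytes, it was 9.89 and 14.8 above and 30.8 and 29.6 below. Below the lesion that order was the other way, by a small margin whose spread is unknown. CD74 stood at 2.09 and 2.05 times the summed chains above, and at 1.36 and 1.86 times below, so the proportion of invariant chain to chains was lowest below the lesion in the pool labelled synj1+/+.

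Of the tissue's own markers, neuronal genes were higher in the pool labelled synj1+/- in 5 of 6 above and 4 of 4 below. Astrocyte genes were lower in 6 of 6 above and 5 of 6 below, with medians of -0.27 and -0.21 and summed levels of 17243 and 14104 FPKM above and 15353 and 11948 below, and the part of either list in the members' differences was not tested. MBP, MAG and CNP, defining genes of oligodendrocytes, were not listed at either site, so the listed genes do not cover every abundant gene of spinal cord.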

How the data were processed

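RNA of 12 libraries (3 per group) was prepared with a random-primed TruSeq kit. Per the labels and the study's methods, the authors reduced the reads of each site at random to the smallest library, and used STAR 2.5.4b and cufflinks (Cuffdiff 1.3.0 in the submitters' processing notes) with upper quartile normalization on GRCm38.p6. The annotation and strand setting are not given in the sources used here. The deposited table holds pooled FPKM plus 1 per genotype and site (other columns: the authors' fold change, p-value, q-value and significance, not used), read as such because its lowest value is exactly 1. It gives no read totals, so the depth behind each value is unknown.

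FPKM was taken as the value minus 1 and differences as log2 of the values. The 6 entries of symbols given more than once at a site were left out, which left 13643 genes above, 12336 below and 12023 at both. A gene was described as past a fold at 1.5 on the FPKM plus 1 values, and each gene was set beside genes within 2-fold of its level. Because the groups are pooled, no test was run, and the planned comparisons became values. Members and lists were chosen with earlier results of these data known, and the motifs after the promoters were seen. Named were the members, SYNJ1, up to 6 genes per list past 1.5-fold, each list's best known genes and the 5 genes nearest in pattern, of which some are not reported here. H2-DMB1, NLRC5, IRF8 and CD86 are named under the best-known rule. Alternatives were the constant added, centring on the median of all genes, a filter on low values and other folds. The scripts ran in Python 3.11.15 with numpy 2.4.6, pandas 2.3.3 and matplotlib 3.10.9 and were tested on simulated data. Gene positions are from GENCODE on GRCm38, and promoters from RefSeq.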

Additional observations from a re-analysis of the deposited data

How the results depend on the processing

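Of 161 alternative values, 152 stayed within 0.1 log2 or 1.5 times of the reported one, 9 moved further and 0 reversed. Much of that count was fixed beforehand. Centring shifts a value only by the median of all genes, at most 0.022 in size. The filter on low values leaves each gene's own difference unchanged. The count is therefore no measure of how firm the values are. With the limit at a ratio 25% above 1 or its inverse, in place of 50%, 1 gene (H2-EB1) was past it higher above the lesion, against 4.18% of all genes, and 3 (H2-AA, H2-AB1 and B2M) were past it lower below, against 11.5%. With 0.1 added to FPKM in place of 1, 1 gene (H2-AA) was past 1.5-fold lower below, and the share of all genes at that setting is not given here. No gene of the 10 was past 2-fold at either site. Of all genes 0.132% were past it higher and 0.55% lower above, and 0.162% and 1.31% below. No paired analysis was possible because the table pools the libraries of each group, and results without each replicate could not be computed for the same reason. The pools also hide whether 1 library carries a value, and the sites were normalized separately. Percentiles among genes of like level and the class II median without CD74 (0.30 above, -0.45 below) were added after the data were seen.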

Other observations

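The genes nearest in pattern to the class II members, by root mean square distance of their 4 centred log2 values over the 4 pooled groups and among 10807 genes, were EYA2 at 0.037, MMP9 at 0.1, WNK4 at 0.131, PIK3R6 at 0.156 and PLEKHA4 at 0.186. The class II members themselves lay 0.104 to 0.145 from their own mean pattern. EYA2, a phosphatase and transcriptional coactivator, was 13 and 15.8 FPKM above the lesion and 37.2 and 28.2 below, in the order synj1+/+ then synj1+/-. Among the 5 nearest to the class I members H2-D1 and B2M were CRACR2B at 0.018, ETNPPL at 0.021, RTRAF at 0.023 and 3110082I17RIK at 0.029. A likeness over 4 pooled values rests on very few points.

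The genes between Tapbp and H2-D1 on chromosome 17 were also read without the members and the genes of the pathway lists, such as PSMB9. Those left were split above the lesion, where 30 of 56 were higher in the pool labelled synj1+/-. Their median log2 difference was 0.005. Past 1.5-fold were 1 higher and 2 lower, against 0.792% and 1.93% of all genes. Below the lesion 18 of the 52 left were higher and 34 lower, with a median of -0.07. There 0 of those left were past 1.5-fold higher and 5 lower, where 47.2% of all genes were lower and 1.16% and 4.37% were past that fold. The medians of the 3 class II chains, which lie in that stretch, were 0.30 above and -0.45 below.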
